A study of Mus musculus with 12 samples.

Results

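The genes described here are those of the collagen chains, found as probe sets that carry 1 gene symbol made of Col, a type number, the letter a and a chain number. The rule gave 82 probe sets of 42 genes out of 18193 genes with a named probe set on the array. By textbook class these were 11 fibrillar chains, 6 basement membrane (type IV) chains, 9 chains of the FACIT class, which bind to the surface of fibrils, and 16 others. The reference gene table lists 44 such mouse genes, and Col6a6 and Col28a1 were not analysed here because no probe set carried their symbol alone. Where a gene had several probe sets, which was so for 27 genes, it is given by the one with the highest mean over all arrays.

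The arrays compared 6 MSC and HSC co-cultures with 6 MSC-only cultures (control), and the study asked how hematopoietic stem/progenitor cells act on mesenchymal stem/stromal cells. The labels give the bone marrow of male C57BL6/J mice aged 6 weeks for all samples. For co-cultures in general, the study's methods took MSCs from mice that carry an EGFP transgene under the ubiquitous CAG promoter, and they do not name the donors of the arrays separately. Each well received 3000 MSCs, sorted as Sca-1 and PDGFR-α positive cells, and in the co-culture group also 7000 HSCs, sorted as c-Kit and Sca-1 positive cells that lacked lineage markers, against 0 HSCs in the control group. Total RNA was taken on day 6 of culture in IMDM with serum and read on an Affymetrix mouse array, in which a probe set is a group of short oligonucleotides for 1 transcript. The labels do not say whether both cell types touched, nor which cultures shared a mouse, so the spread between cultures may be partly technical. GEO's design text names a cell sort of the MSCs at harvest, while the methods describe none.

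A collagen molecule is a triple helix of chains, rich in glycine and proline, that is hydroxylated and folded in the endoplasmic reticulum, secreted, trimmed and crosslinked outside the cell. Fibrillar collagens such as types I, III and V build the tensile fibrils of bone, skin and stroma, type IV forms the sheet of basement membranes, FACIT chains decorate fibrils, and type VI forms beaded microfilaments near cells. In bone marrow, collagens are made mainly by stromal cells and bone-forming cells, and type I collagen is a classical product of the mesenchymal lineage.

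Signals are on the linear scale of the deposited table, differences are co-culture minus control of log2(signal + 16), and tests are limma's with adjustment over all 45037 probe sets unless stated otherwise. A log2 difference of this kind understates the change of dim genes. In these cultures stromal and hematopoietic markers were both read. Pdgfra, a sort marker of the MSCs, had signals of 407 to 1464, and Sca-1 (Ly6a) had no probe set of its own symbol here. Ptprc, which encodes the blood cell antigen CD45 that was used to exclude cells from the MSC sort, gave 10425 to 13144 in the control cultures, which had received no HSCs, and 11519 to 12642 in the co-cultures. The summed signal of 16 macrophage genes was 339721 to 448735 in the co-cultures and 319642 to 450608 in the controls. In such bulk RNA, fewer cells of a type and less RNA per cell cannot be told apart. Xist, which female cells express, stood at 13136 to 21978 in all 6 co-cultures and in controls 3 and 4, and at 60.5 to 117.6 in the other 4 controls, which goes against the label male for 8 arrays. For the main collagen genes, classes and counts, values without numbers 3 and 4 of both groups are given beside those of all arrays. In that subset all 4 co-cultures are high in Xist and all 4 controls are low, so Xist status and co-culture cannot be told apart there. Co-cultures 3 and 4, left out with the controls of these numbers, were high in Xist like the other co-cultures. Their removal thus does not follow from Xist and can itself move a difference. The arrays also split along the first principal component, computed without the collagen probe sets and holding 21.6% of the variance. Array set 1 held co-cultures 2, 3 and 5 with controls 1, 3 and 5, and array set 2 held co-cultures 1, 4 and 6 with controls 2, 4 and 6. These sets are groups of arrays seen in the data and not groups of the study, so correlations and differences are given within each.

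The promoters of 6 collagen genes are shown because their signals carry the patterns described here. Col1a2 had the highest collagen signal, Col3a1, Col8a1 and Col18a1 varied together or in opposite directions over the arrays, and Col6a1 and Col6a3 encode chains of 1 molecule that varied together. The letters are from RefSeq on build GRCm38.p6, 5′ to 3′ on the strand of the gene, and end at or before the annotated start, so they hold no transcribed base. Capitals mark CCAAT (or ATTGG), the GC box GGGCGG (or CCGCCC) and TATAAA (or TTTATA), wherever these letters occur on either strand. The Col1a2 window lies at chr6:4505368-4505617 on the plus strand, that of Col3a1 at chr1:45311288-45311537 on the plus strand, and that of Col8a1 at chr16:57754738-57754987 on the minus strand. That of Col18a1 lies at chr10:77166531-77166780, of Col6a1 at chr10:76726045-76726294 and of Col6a3 at chr1:90844002-90844221, all on the minus strand. The Col18a1 window is the outer of 2 starts in the table.
Col1a2: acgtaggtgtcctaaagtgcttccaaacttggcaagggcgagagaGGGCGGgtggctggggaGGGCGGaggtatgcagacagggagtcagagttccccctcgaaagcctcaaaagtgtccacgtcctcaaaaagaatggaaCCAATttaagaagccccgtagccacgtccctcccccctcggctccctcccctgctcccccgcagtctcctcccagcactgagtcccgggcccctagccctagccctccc
Col3a1: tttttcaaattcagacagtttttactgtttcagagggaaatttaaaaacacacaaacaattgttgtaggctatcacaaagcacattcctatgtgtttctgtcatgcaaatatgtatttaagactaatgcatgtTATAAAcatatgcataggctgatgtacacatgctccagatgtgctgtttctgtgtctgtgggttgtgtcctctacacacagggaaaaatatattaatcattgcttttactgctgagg
Col8a1: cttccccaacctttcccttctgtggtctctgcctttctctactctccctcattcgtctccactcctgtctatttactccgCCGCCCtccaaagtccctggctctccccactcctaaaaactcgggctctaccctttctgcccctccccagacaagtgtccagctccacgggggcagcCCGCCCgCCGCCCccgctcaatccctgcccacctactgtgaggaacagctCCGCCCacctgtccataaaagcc
Col18a1: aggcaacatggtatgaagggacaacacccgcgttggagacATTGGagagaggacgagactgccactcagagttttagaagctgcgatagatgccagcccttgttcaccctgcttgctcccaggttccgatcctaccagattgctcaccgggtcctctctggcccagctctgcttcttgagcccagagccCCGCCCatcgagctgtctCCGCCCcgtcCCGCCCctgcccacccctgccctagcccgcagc
Col6a1: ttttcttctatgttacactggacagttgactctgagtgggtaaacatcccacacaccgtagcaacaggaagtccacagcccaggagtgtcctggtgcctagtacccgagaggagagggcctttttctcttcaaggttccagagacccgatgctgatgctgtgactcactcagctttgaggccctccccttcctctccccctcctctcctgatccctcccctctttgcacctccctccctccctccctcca
Col6a3: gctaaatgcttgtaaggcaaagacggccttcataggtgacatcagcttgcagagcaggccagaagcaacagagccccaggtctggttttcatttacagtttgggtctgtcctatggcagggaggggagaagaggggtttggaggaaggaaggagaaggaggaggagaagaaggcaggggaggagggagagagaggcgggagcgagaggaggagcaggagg
None of these motifs is in all 6 windows. Col1a2 holds 1 CCAAT and 2 GC boxes, Col3a1 holds only 1 TATAAA, Col8a1 holds 4 GC boxes on the other strand, and Col18a1 holds 3 GC boxes and 1 CCAAT, both on the other strand. No match was found in the Col6a1 and Col6a3 windows, which says only that these letters are not in these bases. Over 38 windows of 250 bases from 35 collagen genes, 22 held a GC box, 13 a CCAAT and 5 a TATAAA, and over all 32851 promoter windows of the same length the shares were 32.7%, 33.8% and 12.4%.

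The signals of the collagen genes ranged from among the brightest of the array to its floor. An array signal also depends on how well its probes bind, so an order between genes is an order of signals and not of transcript numbers. Of the 42 genes, 14 lay above the median of all genes, and their median percentile was 40.6. The fibrillar class ran from Col24a1 at the 21.0th percentile to Col1a2 at the 99.0th, which is the 190th brightest of 18193 genes. Col5a2 lay at the 95.8th percentile and Col3a1 at the 90.2th. In the basement membrane class, the widely expressed chains Col4a1 and Col4a2 lay at the 76.8th and 68.6th percentiles, and Col4a5 at the 67.7th. The other type IV chains, Col4a3, Col4a4 and Col4a6, had mean signals of 16.02 to 31.96. The brightest FACIT gene was Col12a1, whose chain binds type I fibrils, at the 79.8th percentile, followed by Col16a1 at the 56.5th. Outside these classes Col8a1, a short chain network collagen of vessels and matrix, lay at the 87.2th percentile, and Col18a1, the precursor of endostatin, at the 59.5th. The lowest signals were those of Col17a1, a transmembrane collagen of epithelial adhesion, with a mean of 3.76, and of Col10a1, the collagen of hypertrophic cartilage, with a mean of 6.38. The plot of percentiles by class shows few genes of each class above the line and a tail below it.

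**Figure D1:**
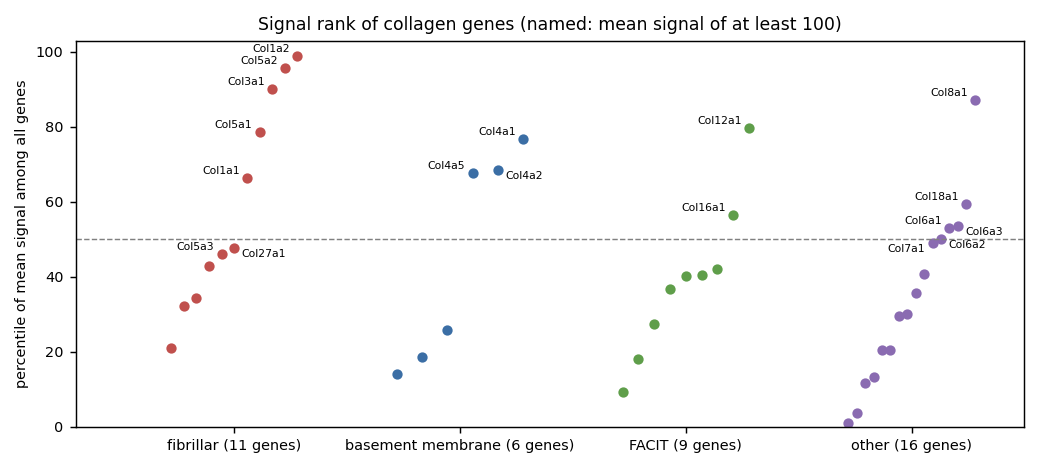
Percentile of the mean signal over 12 arrays among all 18193 genes (vertical axis, percent) for each collagen gene, 1 point per gene, grouped by class. Genes with a mean signal of at least 100 are named, the dashed line is the median gene, and 14 of 42 genes lie above it, Col1a2, Col5a2, Col3a1 and Col8a1 highest.

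No collagen probe set passed the test between co-culture and control. Of the 82, 47 had a lower mean in the co-cultures and 35 a higher one, 0 passed limma at an adjusted p of 0.05, and every adjusted p rounded to 1.0. Over all probe sets 2 passed, which is 0.00444%. At an unadjusted p under 0.05, 4 collagen probe sets were lower and 1 was higher, beside 1.55% lower and 2.81% higher over the whole array. The 4 lower ones belonged to Col12a1, with 2 probe sets, and to a dimmer probe set each of Col20a1 and Col27a1, and the higher one to a dim probe set of Col25a1. Among the 27 genes with several probe sets, 15 had the same direction in all of them. In no collagen gene did the groups fail to overlap. Over all genes, 0.077% had all co-cultures below all controls and 0.132% all above.

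The means of the bright collagen genes lay mostly below those of the controls over all 12 arrays, but not to the same extent in both array sets. Of all 42 genes, 24 (57.1%) had a lower co-culture mean, against 46.7% of all genes, with a median log2 difference of -0.08 against 0.01. Among the 18 with a mean signal of at least 100, 13 (72.2%) had a lower mean, against 50.8% of all genes so bright, with a median of -0.21 against -0.00. Among the 24 dimmer genes, 11 had a lower mean, against 41.5% of dimmer genes in all, with a median of 0.05. Without numbers 3 and 4 of both groups, 26 of 42 genes and 15 of the 18 bright genes had a lower mean, with medians of -0.17 and -0.43, while 46.3% of all genes did. Within array set 1, 29 of 42 genes had a lower mean, with a median of -0.21 over the 42 and of -0.39 over the 18 bright genes. Within array set 2 it was 21 of 42, with a median of 0.0001 over the 42 and of -0.06 over the bright genes. These counts are descriptions of genes that vary together over the same arrays and have no test.

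**Figure D2:**
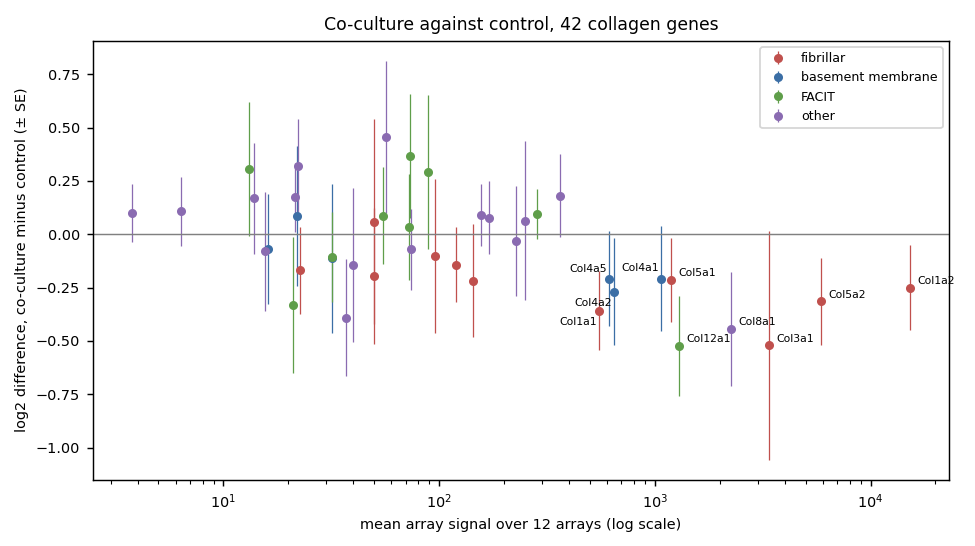
Log2 difference of co-culture minus control (vertical axis, with limma's standard error as bars, 6 arrays against 6) against the mean signal over 12 arrays (horizontal axis, log scale) for 42 collagen genes, coloured by class. The 10 genes with the highest signals all lie below 0, from -0.21 to -0.52, while dimmer genes lie on both sides, and none passed the test.

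The fibrillar chains had lower means in 10 of 11 genes, with a median of -0.21 and a range of -0.52 to 0.06. All 7 of mean signal at least 100 were on that side, and 0 passed limma. Without numbers 3 and 4 the class median was -0.42. The plot of differences against signal shows this as the red points to the right, all below 0. Col1a2, which encodes the second chain of type I collagen, had signals of 9677, 14319 and 17747 (lowest, median and highest) in the co-cultures and of 10465, 17678 and 20612 in the controls. The groups overlapped, and 3 controls exceeded every co-culture. The mean was 13816 ± 2893 against 16633 ± 4268 (SD, n = 6 each), a log2 difference of -0.25 ± 0.20 (SE) with an exact permutation p of 0.249 (two-sided). It was -0.43 without numbers 3 and 4, and -0.38 to -0.15 when each array in turn was left out. Col1a1, whose product joins that of Col1a2 in type I collagen, had signals of 377, 456 and 622 in the co-cultures and of 384, 646 and 802 in the controls. Again 3 controls lay above the highest co-culture, while control 2 was the lowest control and lay near the lowest co-culture. The log2 difference was -0.36 ± 0.19 (SE, n = 6 each, exact permutation p = 0.097), and -0.47 without numbers 3 and 4. A second Col1a1 probe set, with a mean signal of 288, had a smaller difference of -0.16. It had -0.44 within array set 1 and 0.12 within array set 2.

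Col3a1, the gene of the type III chain that mixes into type I fibrils of elastic tissue, varied most of all bright collagen genes. Its signals in co-cultures 1 to 6 were 1054, 2612, 7493, 3090, 2451 and 876, and those in controls 1 to 6 were 6706, 2789, 4245, 1144, 5721 and 2338. Both the highest and the lowest value thus came from co-cultures, and the groups overlapped over nearly their whole range. The mean was 2929 ± 2405 against 3824 ± 2124 (SD, n = 6 each), and the log2 difference of -0.52 ± 0.54 (SE) had an exact permutation p of 0.398. It moved with single arrays, to -0.86 without co-culture 3 and to -0.25 without co-culture 6, and was -1.34 without numbers 3 and 4 of both groups. Col5a2, a type V chain that takes part in starting fibrils, had signals of 4184, 4936 and 7263 in the co-cultures and of 4202, 6520 and 9210 in the controls. The lowest values of both groups were alike, and 3 controls lay above the highest co-culture. In the plots of signal per array these are the same 3 controls, numbers 1, 3 and 5, that lay above the co-cultures in Col1a1 and Col1a2. Its log2 difference was -0.31 ± 0.20 (SE, n = 6 each, exact permutation p = 0.165), and -0.42 without numbers 3 and 4. The other fibrillar chains of at least 100, Col5a1, Col5a3 and Col27a1, had differences of -0.21, -0.14 and -0.22. The next brightest probe sets of Col1a2, Col3a1, Col5a2 and Col5a1 had -0.30, -0.36, -0.26 and -0.04. The cartilage fibril genes Col2a1, Col11a1 and Col11a2 and the gene Col24a1 had mean signals of 22.5 to 95.4 and differences of -0.20 to 0.06.

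**Figure D3:**
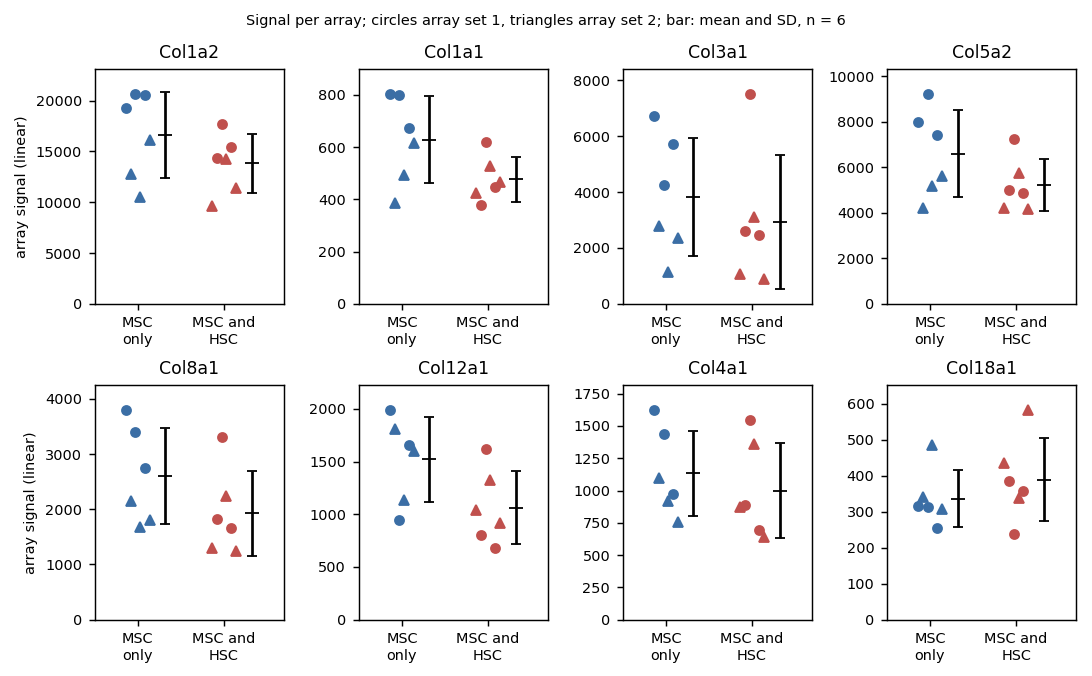
Signal per array on a linear scale from 0 (vertical axis) for 8 collagen genes, with control arrays in blue and co-cultures in red, array set 1 as circles and array set 2 as triangles, and the mean with SD of the 6 arrays of each group as black bars. In Col1a2, Col1a1 and Col5a2, 3 controls, all of array set 1, lie above every co-culture, while the other controls overlap with the co-cultures.

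Stromal and smooth muscle markers also lay mostly on the lower side. Of 14 stromal genes, 10 had a lower co-culture mean, with a median of -0.24, and their summed signal was 9999 to 19760 in the co-cultures and 12215 to 21696 in the controls. Of 7 smooth muscle genes, 5 had a lower mean, with a median of -0.35 and a summed signal of 14748 to 25764 against 20900 to 35725. None of the genes of both lists was at 0 on any array. This does not show expression, since signals at the floor are also above 0. The stromal gene Nt5e, for instance, had 4.5 to 57.8 in the controls. Among the stromal genes, Postn, a matrix protein of periosteum, had a difference of -0.62, Pdgfrb -0.47 and Pdgfra -0.24, with adjusted p-values of 1.0 in limma. The 4 stromal genes on the higher side were Twist2, Lepr, Vcam1 and Eng, with a highest difference of 0.31. Their mean signals were 46.3, 72.2, 2012 and 346 in the co-cultures and 34.6, 57.5, 1929 and 336 in the controls. Macrophage genes differed less, with a median of -0.02 over 16, of which 11 had a lower mean. Over all genes 46.7% had a lower mean, and of those with a mean signal of at least 100, 50.8% did. The part of these markers in the collagen differences was not tested.

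The basement membrane chains had lower means in 5 of 6 genes, with a median of -0.16, and 0 passed limma. Without numbers 3 and 4 of both groups the class median was -0.11. Col4a1 and Col4a2, whose products form the common type IV trimer, had differences of -0.21 ± 0.25 and -0.27 ± 0.25 (SE). Without co-culture 3 these were -0.35 and -0.43, without control 1 they were -0.10 and -0.14, and without numbers 3 and 4 of both groups -0.48 and -0.64. Col4a1 had signals of 641, 880 and 1547 in the co-cultures and of 760, 1035 and 1621 in the controls. Col4a2 had signals of 366, 541 and 999 in the co-cultures and of 525, 644 and 1076 in the controls. The groups overlapped in both genes, with exact permutation p-values of 0.444 and 0.331 (n = 6 each). A second Col4a1 probe set, with a mean signal of 363, had a difference of 0.09, so the direction of this gene was not the same in its probe sets. Col4a5, an X-linked chain of the type IV family, had signals of 422, 531 and 707 in the co-cultures and of 404, 643 and 940.5 in the controls. It had a difference of -0.21 ± 0.22 (SE), and the lowest signal of all 12 was that of a control.

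The FACIT chains differed among themselves, with 3 of 9 lower and a median of 0.09. Without numbers 3 and 4 of both groups the class median turned to -0.02. Col12a1 had the smallest p of all collagen genes. Its signals in co-cultures 1 to 6 were 1039, 806, 1618, 1324, 680 and 917, and in controls 1 to 6 they were 1985, 1813, 943, 1135, 1656 and 1597. Co-cultures 3 and 4 were the highest of their group and controls 3 and 4 the lowest of theirs, and the groups overlapped through these arrays. The mean was 1064 ± 349 against 1521 ± 402 (SD, n = 6 each), and the log2 difference was -0.52 ± 0.23 (SE), with a limma p of 0.0441 before and 1.0 after adjustment and an exact permutation p of 0.0671. Without numbers 3 and 4 of both groups, which leaves out the overlapping arrays, the difference was -1.03. A second Col12a1 probe set, with a mean signal of 167, also had a difference of -0.52, with a limma p of 0.00789 before and 1.0 after adjustment. Col16a1 was the steadiest of the bright collagens at 237 to 369 over 12 arrays, with a difference of 0.09 ± 0.12 (SE).

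The other FACIT genes had mean signals under 100. Col9a1, which encodes a cartilage chain, had a difference of 0.37 ± 0.29 (SE), and Col20a1 one of 0.29 ± 0.36. The direction was not the same in all their probe sets. A second, dimmer Col9a1 probe set had -0.10, and the dimmer Col20a1 probe sets had -0.59, -0.16 and 0.03. Col9a1 had signals of 60.4, 71.3 and 117 in the co-cultures and of 15.2, 62.8 and 105 in the controls. Col20a1 spread from 66.5 to 110.5 in the co-cultures and from 19.1 to 184 in the controls. The controls of Col20a1 thus spanned the co-cultures on both sides. Of 7 chondrocyte genes, 5 had higher co-culture means, with a median of 0.25 and a summed signal of 230 to 343 against 180 to 249. None of the 7 passed limma, each had a mean signal under 100, and their part in the Col9a1 difference was not tested. Of all genes with a mean signal under 100, 4684 of 8013 had a higher mean, with a median of 0.06.

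Of the remaining 16 collagen genes 6 had a lower mean, with a median of 0.08, which was 0.0027 without numbers 3 and 4 of both groups. Col8a1 stood apart from the other genes of this group in its signal. Its signals in co-cultures 1 to 6 were 1291, 1827, 3314.5, 2234, 1662 and 1239, and in controls 1 to 6 they were 3793, 2159, 3402, 1675, 2757 and 1802. Co-cultures 1, 5 and 6 lay below every control, the others among them. The log2 difference was -0.44 ± 0.27 (SE, n = 6 each, exact permutation p = 0.160), and -0.76 without numbers 3 and 4. Its partner Col8a2 was dim, with signals of 8.50 to 37.0 in the co-cultures and of 4.30 to 24.9 in the controls, and had a difference of 0.32 ± 0.22 (SE). Col18a1 had signals of 237, 372 and 582 in the co-cultures and of 254, 314 and 486 in the controls, a difference of 0.18 ± 0.20 (SE). This was 0.06 without co-culture 6, 0.31 without co-culture 3 and 0.49 without numbers 3 and 4. The type VI chains Col6a1, Col6a2 and Col6a3, which form 1 molecule, had differences of -0.03, 0.08 and 0.06. Col6a3 spread from 112 to 467.5 in the co-cultures and from 122 to 444 in the controls, 4.17-fold over all arrays. Col25a1, a transmembrane collagen first known from amyloid plaques, had a mean signal of 56.5 and the highest difference of all collagen genes, 0.46 ± 0.36 (SE, n = 6 each, exact permutation p = 0.268).

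The difference between the groups was larger in array set 1 than in array set 2 for the fibrillar chains, but that contrast did not pass a test. In array set 1, all 11 fibrillar genes had a lower co-culture mean, with a median of -0.53, and 5 of 6 basement membrane genes, with a median of -0.39. In array set 2, 7 of 11 fibrillar and 4 of 6 basement membrane genes were lower, with medians of -0.05 and -0.03. The FACIT and remaining classes had medians of -0.10 and 0.01 in array set 1 and of 0.17 and 0.05 in array set 2. Over all genes, 50.02% were lower in array set 1 and 44.7% in array set 2. The 3 co-cultures of array set 1 lay below its 3 controls in 6 collagen genes, Col1a1, Col1a2, Col5a2, Col11a1, Col4a5 and Col6a4, where all genes gave 4.38%, and above them in Col8a2, where all genes gave 3.97%. In array set 2 they lay below in 0 of 42 collagen genes, against 3.33% of all genes, and above in Col16a1 and the dim Col9a2, against 5.33%. Col1a1 differed by -0.66 in array set 1 and by -0.05 in array set 2, and Col1a2 by -0.35 and -0.15. Col3a1, in contrast, differed by -0.58 and -0.46. The interaction of array set and co-culture in limma had an adjusted p of 1.0 for every collagen gene, and the smallest before adjustment was 0.0132, for Col8a2. With the array set as a block, 0 collagen genes passed limma, and 0 were under an unadjusted p of 0.05, where 1.95% of all genes were lower and 2.9% higher. The smallest p-values before adjustment were 0.0503 for Col8a1, 0.0526 for Col12a1 and 0.0557 for Col1a1, with an adjusted p of 0.951 each.

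Collagen signals varied more from array to array than those of most genes. Over the 12 arrays the SD of log2(signal + 16) had a median of 0.40 in the 18 bright collagen genes and of 0.19 in all 10180 genes with a mean signal of at least 100. Col3a1 had an SD of 1.02, which was above that of 99.4% of those genes, and its highest array was 8.55 times its lowest. Col6a3 had an SD of 0.68, Col8a1 of 0.53 and Col12a1 of 0.50. The steadiest was Col16a1 with 0.18. The spread of Col3a1 within the groups, 1.03, was no smaller than over all arrays.

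**Figure D4:**
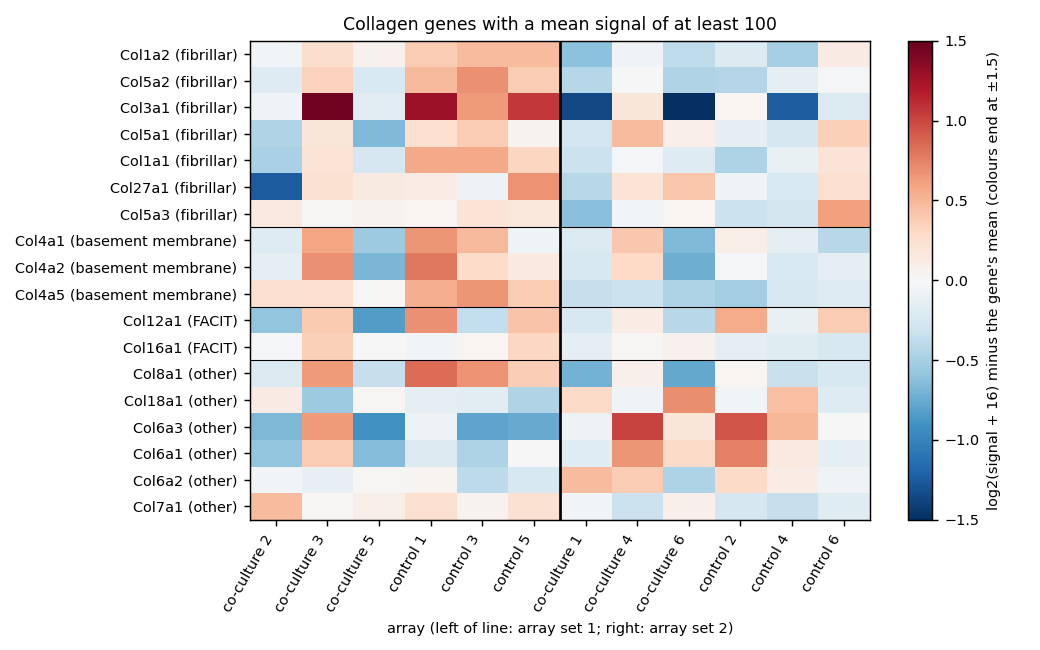
Log2(signal + 16) minus the mean of the gene over 12 arrays (colour, from blue at -1.5 to red at 1.5) for the 18 collagen genes with a mean signal of at least 100 (rows, by class) on each array (columns, array set 1 left and array set 2 right of the thick line). Col3a1 has the strongest colours, with an SD of 1.02, and the Col6a1 and Col6a3 rows share a pattern that is unlike that of the fibrillar rows.

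The heatmap of the 18 bright genes shows which of them moved together within an array set. Each set mixed 3 co-cultures and 3 controls, and all genes of an array share its RNA and its scaling, so the correlations are descriptions over 6 arrays. The median Pearson r between fibrillar chains was 0.70 in array set 1 and 0.64 in array set 2, beside 0.00 in both for all pairs of 10180 genes. Between fibrillar and basement membrane chains it was 0.77 and 0.25, and between fibrillar and FACIT chains 0.56 and 0.15. Between fibrillar chains and the remaining class it was -0.12 and -0.03. Within the basement membrane class the median was 0.75 and 0.24, and within the remaining class -0.16 and -0.18. The 2 bright FACIT genes had an r of 0.49 and -0.52 with each other. These medians rest on few genes, 7 fibrillar, 3 basement membrane, 2 FACIT and 6 remaining ones.

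Of chains that share a molecule, a fibril or a position in the genome, 12 pairs were each taken in both array sets. Of these 24 correlations, 2 passed an exact permutation test (two-sided) on Pearson's r after adjustment over the 24, and 0 on Spearman's rho. The test permuted all 6 arrays of a set, and group means were not removed. A difference between co-culture and control that both genes share thus enters r and its p. Both passing pairs were in array set 1, where the fibrillar and basement membrane medians differed by -0.53 and -0.39. Col4a1 and Col4a2 had a Pearson r of 0.95 in array set 1 (n = 6, exact permutation p = 0.00139, adjusted 0.0333) and of 0.92 in array set 2 (exact p = 0.0167, adjusted 0.0800), with Spearman's rho of 1.0 and 0.83 (adjusted exact p = 0.0667 and 0.233). Without the 2 arrays farthest from the median Col4a1 signal, r was 0.89 and 0.54. These genes lie head to head on chromosome 8 (GRCm38.p6), Col4a1 at chr8:11198423-11312889 and Col4a2 at chr8:11312805-11449287, so that their annotated ends overlap by 85 bases. The type V chains Col5a1 and Col5a2 had an r of 0.98 in array set 1 (exact permutation p = 0.00278, adjusted 0.0333) and of 0.67 in array set 2 (adjusted exact p = 0.289), and without the 2 farthest arrays 0.89 and -0.45, so the relation in array set 2 rested on those arrays. Their rho was 0.94 and 0.49 (adjusted exact p = 0.200 and 0.502). A second Col5a1 probe set, with a mean signal of 368, had an r with the first of 0.56 and 0.61, and that of Col5a2 0.90 and 0.90. The pair was not tested with these second probe sets. The type I chains Col1a1 and Col1a2 had an r of 0.95 and 0.63 (adjusted exact p = 0.0667 and 0.326), a rho of 0.83 and 0.60 (0.233 and 0.476), and an r of 0.55 and 0.84 without the 2 farthest arrays. Col6a1 and Col6a3 had an r of 0.80 and 0.94 (adjusted exact p = 0.183 and 0.0800), a rho of 0.71 and 0.89 (0.363 and 0.200), and an r of 0.91 and 0.71 without the 2 farthest arrays.

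By the brightest probe set of each gene, chains of 1 molecule did not all track each other. Col6a1 and Col6a2, 85161 bases apart on chromosome 10, had an r of -0.16 in array set 1 and of 0.13 in array set 2. A second Col6a2 probe set was nearly as bright, with a mean signal of 154 against 171. Its r with the first was 0.66 and 0.58, so the value of this pair may depend on the probe set. The pair was not tested with the second one. Col3a1 and Col5a2 are neighbours on chromosome 1, with 24624 bases between them, and had an r of 0.76 and 0.51 (adjusted exact permutation p = 0.218 and 0.326), which was -0.84 and 0.07 without the 2 farthest arrays. Col1a1 and Col3a1, whose chains meet in mixed fibrils, had an r of 0.77 and 0.21 (adjusted exact permutation p = 0.218 and 0.820), which was -0.57 and 0.76 without the 2 farthest arrays. Both relations rested on those arrays in array set 1. The dim pairs Col4a3 with Col4a4, Col4a5 with Col4a6, Col9a1 with Col9a2, Col11a1 with Col11a2 and Col8a1 with Col8a2 had an r between -0.79 and 0.68, where the dimmer partner had a mean signal of 13.1 to 50.1. None of these 5 passed the adjusted exact test.

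Pairs outside these 12, picked after their values were seen, are given without a test. In the plots of paired signals they are the last 2 panels. Col3a1 and Col8a1, whose promoters are shown above, had an r of 0.89 in array set 1 and of 0.94 in array set 2, while Col3a1 and Col18a1 had an r of -0.85 and -0.91. Co-culture 6, with the lowest Col3a1 signal of 876, had the highest Col18a1 signal of 582. Co-culture 3, with the highest Col3a1 signal of 7493, had the lowest Col18a1 signal of 237. A second probe set of each of these genes followed the first, with an r of 0.98 and 0.99 in Col3a1, 0.99 and 0.96 in Col8a1 and 0.86 and 0.91 in Col18a1. Not every collagen gene had such agreement. Where the second probe set had a mean signal of at least 100, this r ran from 0.08 (Col4a5, array set 2) to 0.99 (Col8a1, array set 1).

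**Figure D5:**
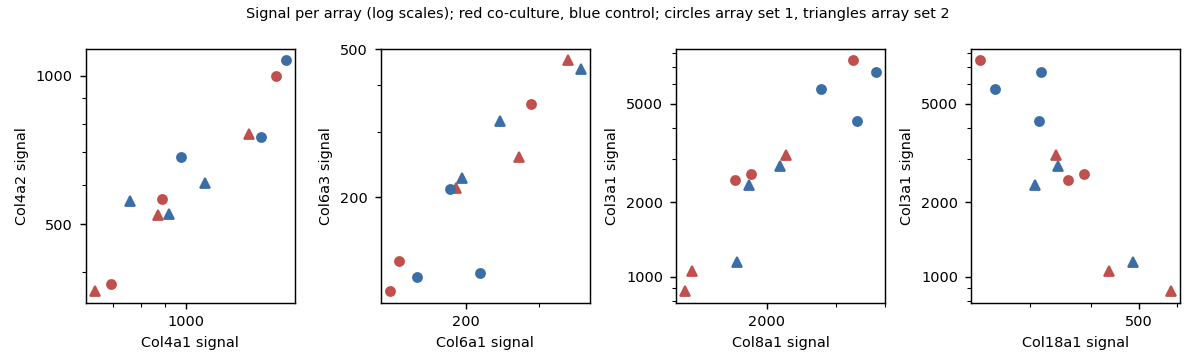
Signals of 4 pairs of collagen genes on each array (both axes, log scale), with co-cultures in red and controls in blue, array set 1 as circles and array set 2 as triangles. Col4a2 follows Col4a1, Col6a3 follows Col6a1 and Col3a1 follows Col8a1 within each set, while Col3a1 is lower where Col18a1 is higher, with an r of -0.85 and -0.91.

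The 5 genes outside the collagens whose signals were most like that of Col1a1, by Pearson r over 12 arrays among genes of mean signal at least 100, were Pdlim1, Adamts6, Rpl39l, Odf2l and Klhl22. Within the array sets their r with Col1a1 was 0.92 and 0.86 for Pdlim1, 0.89 and 0.73 for Adamts6, 0.97 and 0.33 for Rpl39l, 0.79 and 0.94 for Odf2l, and 0.84 and 0.66 for Klhl22. They were picked as the highest of many, so these values are descriptions.

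Of 60 other genes of collagen making, processing and binding, 44 had a lower and 16 a higher co-culture mean, where 46.7% of all genes had a lower one. Their median was -0.14, 0 passed limma, and 5 were lower and 1 higher at an unadjusted p under 0.05, beside 1.46% and 2.45% of all genes. Among genes for hydroxylation of the new chains, 12 of 14 were lower, with a median of -0.18. P3h1, which encodes a prolyl 3-hydroxylase that acts on type I collagen, had signals of 142 to 233 in the co-cultures and of 239 to 281 in the controls. It was the only one of the 60 whose groups did not overlap, beside 0.077% of all genes with all co-cultures below all controls, with a log2 difference of -0.43 ± 0.13 (SE, n = 6 each) and an adjusted p of 0.939 in limma. P4hb, a subunit of the prolyl 4-hydroxylase, had a difference of -0.18. Folding and export genes were lower in 9 of 11, with a median of -0.04, such as Fkbp14 with -0.28, while the chaperone gene Hsp90b1 had 0.06.

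Outside the cell, propeptide cleavage genes were lower in 4 of 8 and higher in 4, among them Tll1, a procollagen C-proteinase gene, with -0.58, and its enhancer Pcolce with -0.38. Of 4 crosslinking genes 3 were lower, with -0.37 for Loxl3 and -0.32 for Lox, a lysyl oxidase gene, and 0.57 for the dim Loxl4. Of 8 receptor genes 7 were lower, with a median of -0.29. Ddr2, a receptor kinase for fibrillar collagen, had -0.31, and Lair1, an inhibitory collagen receptor of blood cells, -0.12. Partners of fibrils were lower in 5 of 9, with -0.26 for the fibronectin gene Fn1 and 1.03 for the dim Lum, which encodes the proteoglycan lumican. Breakdown genes were lower in 4 of 6, with a median of -0.03, among them -0.33 for the gelatinase gene Mmp2 and -0.00 for the collagenase gene Mmp13. All of these had an adjusted p of 1.0 in limma.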

How the data were processed

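RNA of 12 cultures, 6 co-cultures and 6 controls, was measured on GeneChip Mouse Genome 430 2.0 arrays. After scanning, the authors summarised each probe set in the GeneChip Operating Software. The deposited values are linear intensities, scaled to a 2% trimmed mean of 496.6 to 497.3 per array. Detection calls were not used here. The number of arrays limits the precision. Median signals per array were 74.8 to 89.0.

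Of 45037 probe sets, 34945 carried 1 symbol in the platform annotation, 932 several and 9160 none here. Values were log2(signal + 16) and were tested with limma 3.58.1 in R 4.3.3 (lmFit, eBayes, no filter, no block), adjusted by Benjamini-Hochberg over the whole array, threshold 0.05. Single genes were compared by two-sided exact permutation over 924 arrangements, and pairs within array sets over all 720 orders of 6 arrays (SciPy 1.17.1, Python 3.11.15). All 42 genes matched the RefSeq table by gene ID. The script for the test was tested on simulated data.

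The members, classes and lists were chosen with earlier results of these data known. Genes were named by rule: in each class the 3 brightest, for either direction the 3 of smallest p, the 3 bright ones with the largest SD, the listed pairs, the brightest and the smallest p of each pathway list, and the 5 genes most like Col1a1. Genes named beside these were chosen after their values were seen. Marker lists not printed above had medians of 0.29 (endothelial, 7 genes), 0.13 (osteoblast, 5), 0.14 (adipocyte, 6) and 0.19 (epithelial, 6), with 0 called. Alternatives covered the constant before the log, scaling, a filter on dim probe sets, other variance models and tests, probe set summaries, blocks and leaving out arrays.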

Additional observations from a re-analysis of the deposited data

How the results depend on the processing

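The count of collagen probe sets passing the threshold was 0 under each of the 24 alternatives tried, among them quantile normalization, median or 75th percentile centring, constants of 1 and 64, a mean signal of at least 50, the methods' t-test and the array set as a block. After removal of group means, the correlation of same-numbered arrays was -0.16 and -0.13 for numbers 1 and 2, whose arrays lie in different array sets. It was 0.10 to 0.15 for numbers 3 to 6, whose arrays share a set. Number and array set are thus mixed in this check, so it cannot tell whether the numbers mark pairs. With the replicate block, fixed or random, 0 collagen probe sets passed. Leaving out each array in turn gave 22 to 27 of 42 genes with a lower mean, 11 to 14 of the 18 bright genes, medians of -0.13 to -0.02 and of -0.28 to -0.14, and class medians of -0.29 to -0.15 (fibrillar), -0.25 to -0.05 (basement membrane), -0.02 to 0.17 (FACIT) and 0.05 to 0.10 (other). Median centring moved the share of all genes with a lower mean to 58.8% and left 13 of the 18 bright collagen genes lower. The fibrillar median moved to -0.53 within array set 1, and that of the other class to 0.0027 without numbers 3 and 4 of both groups. The direction turned for Col6a3, with -0.39 without numbers 3 and 4, -0.11 within array set 2 and -0.13 to 0.26 when single arrays were left out. Leaving out single arrays also moved, without turning, Col4a5 (-0.33 to -0.10), Col5a2 (-0.43 to -0.21), Col8a1 (-0.62 to -0.32), Col16a1 (0.03 to 0.16), Col20a1 (0.03 to 0.53), Col25a1 (0.29 to 0.68), Col8a2 (0.18 to 0.47) and Col9a1 (0.12 to 0.51). The direction also turned within array set 1 for Col20a1 (-0.44), Col25a1 (-0.0554) and Col9a1 (-0.0426), and within array set 2 for Col8a2 (-0.20). The medians of the hydroxylase and propeptide lists moved to -0.33 without numbers 3 and 4 and to -0.28 among probe sets of at least 50. The cause was not tested. The array sets, and the bright and dim division, were chosen after seeing the data. Correlations of pairs were not run with arrays left out, since the sets would then hold fewer than 6.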
